A study of Homo sapiens with 5 samples.

Results

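The genes described here carry glucose to pyruvate, lactate and the mitochondrion, and control that route. They were chosen by symbol: 37 symbols make up the list, 34 of them had a row in the count table of ribosome footprints, and 34 of those genes' 35 rows passed the filter on low counts and were tested. The table as a whole held 13638 rows for 13597 symbols, of which 11205 rows were tested. ENO2, PFKFB3 and PDK1 were listed but are not analysed here. GPI had a second row, for another transcript, with 14, 4 and 8 counts in the knockout libraries and 1 and 6 counts in the wild-type libraries, which did not pass the filter. All libraries came from HAP1, a near-haploid human cell line derived from a chronic myeloid leukaemia line. There were 3 libraries from ZCCHC4 knockout cells and 2 libraries from wild-type HAP1 cells. ZCCHC4 is the methyltransferase that places N6-methyladenosine on 28S ribosomal RNA, and the study was set up around that activity. The labels name no treatment, and do not say how the knockout was made, how many clones it covers or whether libraries of a genotype came from separate cultures. The tests therefore weigh the difference against the spread among these 5 libraries only, and that spread may be technical.

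Glycolysis spends ATP in its upper steps, where hexokinase traps glucose and phosphofructokinase commits it, and returns ATP in its lower steps, from glyceraldehyde phosphate to pyruvate. Pyruvate is then either reduced to lactate, which leaves the cell with a proton through monocarboxylate transporters, or carried into mitochondria and oxidised by the pyruvate dehydrogenase complex. Proliferating cell lines are known for making lactate even with oxygen present, and many of the genes involved are textbook targets of the hypoxia-inducible factor HIF1A and of MYC.

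What was counted is ribosome-protected RNA, 28 to 32 nucleotides long. A value combines how much of a gene's mRNA was present and how many ribosomes it carried, and the files used here do not separate them. Total counts were 16940732 to 31557573 in the knockout libraries and 4887380 and 5302160 in the wild-type libraries, so depth goes with genotype and cannot be told apart from it. Knockout replicate 2 stood apart from the other 2 knockout libraries. Over rows with at least 20 counts in a pair, its counts differed from theirs with a chi-square of 24.6 to 27.7 per degree of freedom. Between knockout replicates 1 and 3 the value was 2.97, and between the wild-type libraries 1.14. For the same proportional spread this value grows with depth, so that of the shallower wild-type pair is not directly comparable. ZCCHC4 itself had 3.85, 3.41 and 4.98 CPM (counts scaled to library size by the trimmed mean of M-values, TMM) in the knockout libraries, against 16.04 and 13.3 CPM in the wild-type libraries, a 3.54-fold lower level (adjusted p = 7.27e-05, edgeR's quasi-likelihood test). Of the markers of other cells, 3 of 10 haematopoietic genes had a row, with at most 2 counts in any library. The 5 of 7 fibroblast markers with a row summed to 8.91 to 12.6 CPM in knockout and 16.7 to 18.3 CPM in wild type, nearly all of it COL1A1, and the 4 of 6 epithelial markers to 135 to 157.5 CPM in knockout and 145.1 to 154.4 CPM in wild type, nearly all of it KRT18. Within that sum EPCAM, an epithelial adhesion molecule, rose 3.52-fold, to 4.72 ± 0.481 CPM in knockout against 1.35 ± 0.202 CPM in wild type (adjusted p = 6.23e-04), and its part in the results was not tested. CDH1, which defines epithelial cells, was at 0 in all 3 knockout libraries and in 1 wild-type library. BCR and ABL1, the genes joined in the parent line's fusion, were both present, at a summed 4.88 to 5.32 CPM in knockout and 7.94 to 8.03 CPM in wild type.

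In the knockout libraries, footprints on the lower steps of glycolysis and on the lactate genes were higher than in wild type, while the upper steps were mixed. Of the 34 members tested, 17 rose, 3 fell and 14 did not pass the test at an adjusted p under 0.05. Over all rows tested, 60.0% passed, 30.2% higher and 29.8% lower, so the members' 58.8% called is close to that background and their 50.0% called higher lies above it. The median log2 fold change was 0.27 over the members and 0.02 over all rows. Scaled by library totals in place of TMM, which moves the median of all rows by -0.22, 13 members rose and 9 fell, and over all rows 2391 rose and 4564 fell. CPM did not overlap between genotypes for 29 members (85.3%), against 76.4% of all rows. Knockout lay above wild type for 21 members and below for 8, and over all rows for 38.5% and 37.9%. A change of at least 2-fold was reached upwards by HK2, GAPDH, PGK1, PKM and SLC16A3, which is 14.7% of the members against 10.0% of all rows. None fell that far, against 13.1% of all rows. By steps, 5 of 6 lower-step genes, 4 of 5 lactate genes, 4 of 8 genes of pyruvate entry and 3 of 10 upper-step genes rose.

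Together the members took 3.22, 3.65 and 3.24% of all footprints in the knockout libraries, against 2.22 and 2.19% in the wild-type libraries. The highest wild-type share lay below the lowest knockout share, and the ratio of the means was 1.53. Most of that came from the lower steps, which took 2.09 ± 0.198% in knockout (SD, n = 3) and 1.16 ± 0.0103% in wild type (SD, n = 2). GAPDH alone took 0.691% of all footprints in knockout and 0.329% in wild type.

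**Figure D1:**
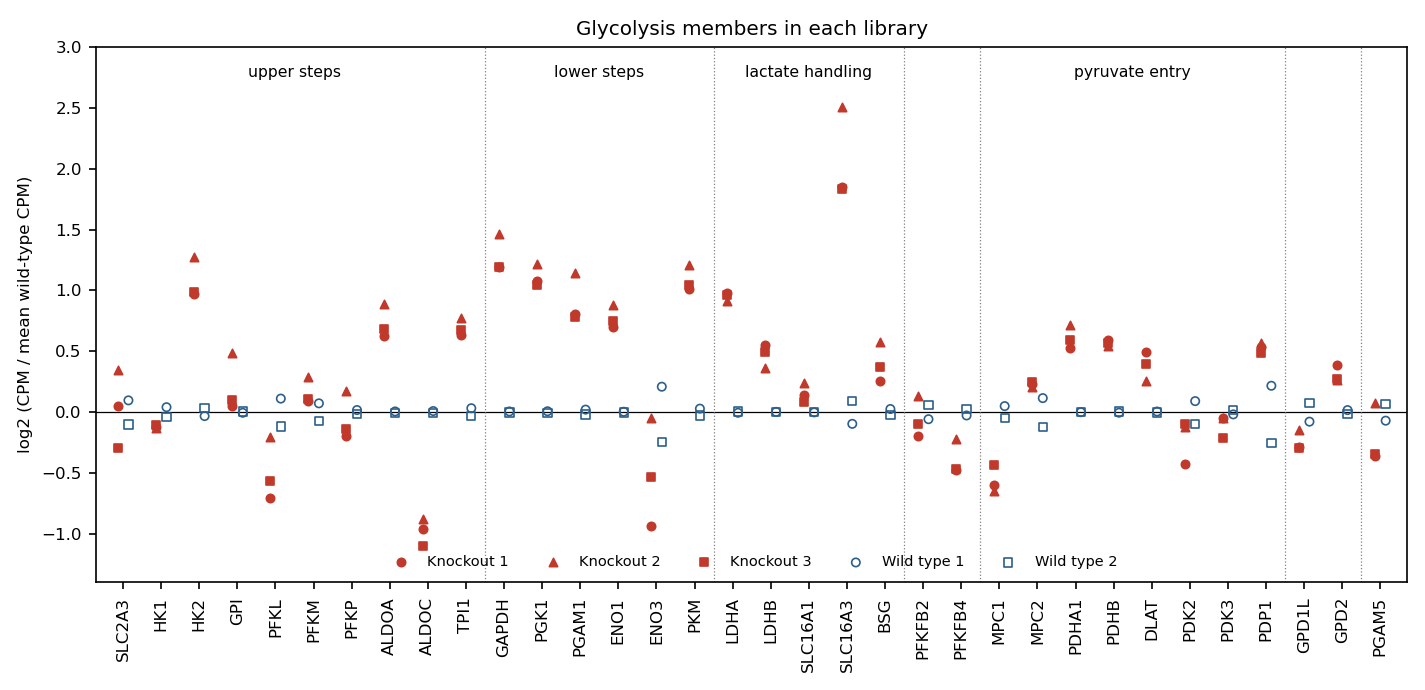
Footprint CPM (TMM-scaled) of each tested member in each library, as the log2 ratio to the mean wild-type CPM of that gene, ordered by step; filled red marks are the 3 ZCCHC4 knockout libraries and open blue marks the 2 wild-type libraries. The lower-step genes from GAPDH to PKM, other than ENO3, sit above wild type in all 3 knockout libraries.

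The lower steps rose nearly as a block. GAPDH, which oxidises and phosphorylates glyceraldehyde phosphate and makes NADH, had 6852, 8291 and 6870 CPM in the knockout libraries, against 3011 and 2991 CPM in the wild-type libraries. All 3 knockout libraries were more than 2-fold above either wild-type library, and the fitted log2 fold change was 1.29 ± 0.09 (SE, adjusted p = 4.10e-06, edgeR). The gene (ENSG00000111640) lies on chromosome 12, at 6533927 to 6538371 of GRCh38 on the plus strand for the counted transcript, with 9 exons and a coding length of 1005 bases. PGK1 (ENSG00000102144), the phosphoglycerate kinase that returns the first ATP, lies on chromosome X at 78104174 to 78129296, plus strand. It had 2975, 3274 and 2911 CPM in the knockout libraries, against 1415 and 1402 CPM in the wild-type libraries (log2 fold change 1.12 ± 0.07, adjusted p = 2.13e-06). PKM, the pyruvate kinase gene of most tissues other than liver and red cells, had 5207, 5977 and 5310.0 CPM in the knockout libraries, against 2630.4 and 2529 CPM in the wild-type libraries (log2 fold change 1.09 ± 0.07, adjusted p = 3.24e-06). For each of the 3 genes the genotypes lay far apart, with no overlap. The PKM row counts a single transcript, so the M1 and M2 forms were not separated.

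PGAM1, the mutase between both phosphoglycerates, had 324.3, 411.6 and 318.9 CPM in the knockout libraries, against 188.5 and 183.3 CPM in the wild-type libraries (log2 fold change 0.92 ± 0.12, adjusted p = 1.57e-04). ENO1, the ubiquitous enolase, had 5592, 6313 and 5783 CPM in the knockout libraries, against 3446 and 3434 CPM in the wild-type libraries (log2 fold change 0.78 ± 0.06, adjusted p = 1.08e-05). Both rose without overlap. ENO3, the muscle enolase, was the member of the lower steps that did not pass the test: it had 8.65, 16.04 and 11.5 CPM in the knockout libraries and 19.2 and 14 CPM in the wild-type libraries, which overlap (log2 fold change -0.49 ± 0.27, adjusted p = 0.144). Without knockout replicate 2 it fell by 0.72 on the log2 scale (adjusted p = 7.66e-06). Here and below, fits without that library weigh changes against the small spread among the remaining libraries, which may be technical. The median log2 fold change of the 6 lower-step genes was 1.00. GENCODE 29 lists 62 pseudogenes named for GAPDH, 13 for PGAM1, 5 for PKM, 4 for ENO1 and 1 for PGK1, and how footprints shared with such copies were counted is not given in the sources used here.

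The upper steps did not move together: HK2, ALDOA and TPI1 rose, PFKL and ALDOC fell, and SLC2A3, HK1, GPI, PFKM and PFKP did not pass the test. Their median log2 fold change was 0.10, and -0.12 when scaled by library totals. HK2 (ENSG00000159399, chromosome 2 at 74833981 to 74893359 of GRCh38, plus strand, 18 exons) encodes the inducible hexokinase bound to mitochondria. It had 207.5, 255.9 and 209.1 CPM in the knockout libraries, against 103.3 and 108.1 CPM in the wild-type libraries (log2 fold change 1.08 ± 0.11, adjusted p = 4.17e-05). HK1, the hexokinase of most tissues, had 196.7, 194.7 and 198.3 CPM in the knockout libraries, against 219.6 and 207.6 CPM in the wild-type libraries. The genotypes did not overlap for either gene, but HK1's difference of -0.12 ± 0.07 did not pass (adjusted p = 0.174), and was -0.12 with an adjusted p of 0.0223 without knockout replicate 2. With offsets for coding length and GC content it was 0.13. Scaled by library totals HK1 was lower, at -0.34 (adjusted p = 0.00235). It also passed as lower with upper-quartile scaling (-0.18, adjusted p = 0.0424) and with a filter of a mean count of 50 (-0.19, adjusted p = 0.039).

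SLC2A3, a high-affinity glucose transporter best known from neurons, was among the lowest members, with 6.86, 8.42 and 5.38 CPM in the knockout libraries and 7.07 and 6.16 CPM in the wild-type libraries. The genotypes overlap (adjusted p = 0.916). GPI, which turns glucose phosphate into fructose phosphate, had 485.3, 659.4 and 503.5 CPM in the knockout libraries, against 468.2 and 472.0 CPM in the wild-type libraries (log2 fold change 0.22 ± 0.12, adjusted p = 0.143). Its highest knockout value came from replicate 2. Without knockout replicate 1 the change was 0.30 with an adjusted p of 0.0394, and with offsets for coding length and GC content 0.34 (0.00235).

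Phosphofructokinase is a tetramer of liver, muscle and platelet subunits. PFKL, the liver subunit, had 78.6, 110.8 and 86.6 CPM in the knockout libraries, against 138.2 and 117.8 CPM in the wild-type libraries. It fell by 0.48 ± 0.15 on the log2 scale (adjusted p = 0.0174), but without wild-type replicate 1 the value was -0.36 with an adjusted p of 0.188. With offsets for coding length and GC content it was -0.18 (adjusted p = 0.0717), and with the wild-type libraries summed its adjusted p was 0.0745. PFKM, the muscle subunit, had 209.1, 240.5 and 211.3 CPM in the knockout libraries, against 206.5 and 186.5 CPM in the wild-type libraries (log2 fold change 0.16 ± 0.09, adjusted p = 0.147). With those offsets it rose, at 0.36 (adjusted p = 6.67e-04), and scaled by library totals it was at -0.05. PFKP, the platelet subunit, had 363.0, 469.0 and 378.5 CPM in the knockout libraries and 421.9 and 412.2 CPM in the wild-type libraries (adjusted p = 0.713). Here the knockout libraries lie on both sides of wild type, with replicates 1 and 3 below it and replicate 2 above it. Without replicate 2 the log2 fold change of PFKP was -0.17 (adjusted p = 6.67e-05), and with the offsets 0.20 (adjusted p = 0.0116).

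ALDOA, the main aldolase of muscle and of most cell lines, had 1322, 1590.0 and 1377 CPM in the knockout libraries, against 862 and 856 CPM in the wild-type libraries (log2 fold change 0.74 ± 0.08, adjusted p = 8.09e-05). Its counted transcript is assigned by GENCODE 29 to a gene of another name, so its identity rests on the symbol in the table. ALDOC, the brain aldolase, had 11.2, 11.8 and 10.2 CPM in the knockout libraries, against 21.9 and 21.7 CPM in the wild-type libraries. It fell by 0.98 ± 0.13 on the log2 scale (adjusted p = 2.13e-04). The 2 aldolases thus went opposite ways, from very different levels. TPI1, which interconverts the triose phosphates, had 1415, 1560.4 and 1451 CPM in the knockout libraries, against 931 and 891 CPM in the wild-type libraries (log2 fold change 0.70 ± 0.07, adjusted p = 2.73e-05).

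**Figure D2:**
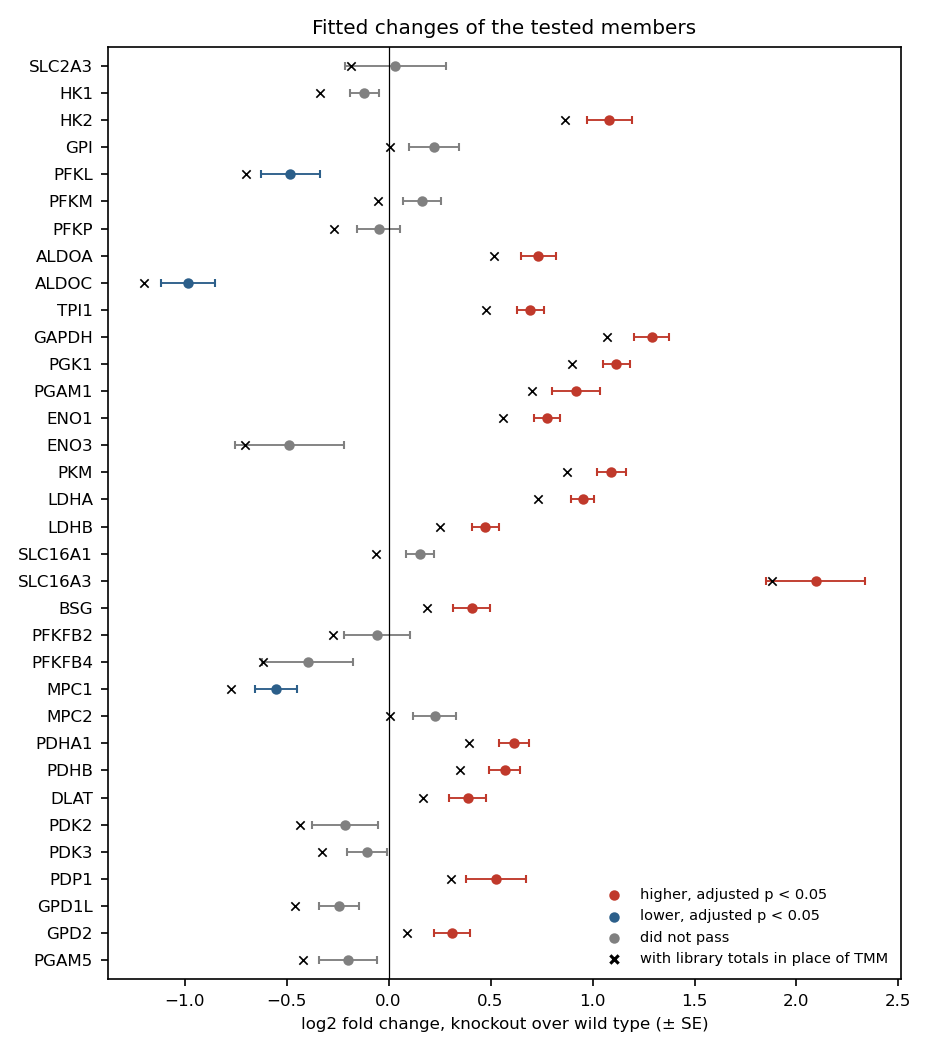
Fitted log2 fold change (knockout over wild type) of each tested member with its standard error, grouped by step, from edgeR's quasi-likelihood fit; colours give the call at an adjusted p under 0.05, and crosses the value when scaled by library totals. Values run from -0.98 for ALDOC to 2.09 for SLC16A3, and 5 of the 6 lower-step genes lie above 0.70.

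To compare levels between genes, CPM were divided by coding length and summed over the genes of a step, which are isozymes or partner subunits. In wild type, this footprint density was 116.1 ± 1.85 CPM per kb for hexokinase and 316.0 ± 15.1 CPM per kb for phosphofructokinase, far under GAPDH at 2986 ± 14.3 and lactate dehydrogenase at 3854 ± 4.07 CPM per kb (SD, n = 2). In knockout the same densities were 152.9 ± 9.41, 305.0 ± 38.9, 7301 ± 821 and 6078 ± 301 CPM per kb (SD, n = 3). The ratio of knockout to wild type was 1.32 at hexokinase, 0.965 at phosphofructokinase, 1.63 at aldolase, 1.62 at triosephosphate isomerase and 2.45 at GAPDH. It was 2.17 at phosphoglycerate kinase, 1.89 at the mutase, 1.71 at enolase, 2.13 at pyruvate kinase and 1.58 at lactate dehydrogenase. All 3 knockout libraries lay above both wild-type libraries at each step from aldolase to lactate dehydrogenase. That also held at hexokinase and glucose phosphate isomerase, but not at phosphofructokinase. Over the 34 members, the log2 fold change and the log2 wild-type density had a Pearson r of 0.46 and a Spearman rho of 0.54; over 11158 rows with a known coding length the values were -0.01 and 0.07. Both measures come from the same libraries, and these are descriptions across genes, which are not independent replicates. Coding length (Pearson r = 0.04) and coding GC content (r = 0.06) had little linear relation to the members' changes. Over the 11158 rows those values were -0.13 and -0.11. With offsets for coding length and GC content the median of the upper steps moved from 0.10 to 0.27, and that of the lower steps was 0.97.

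**Figure D3:**
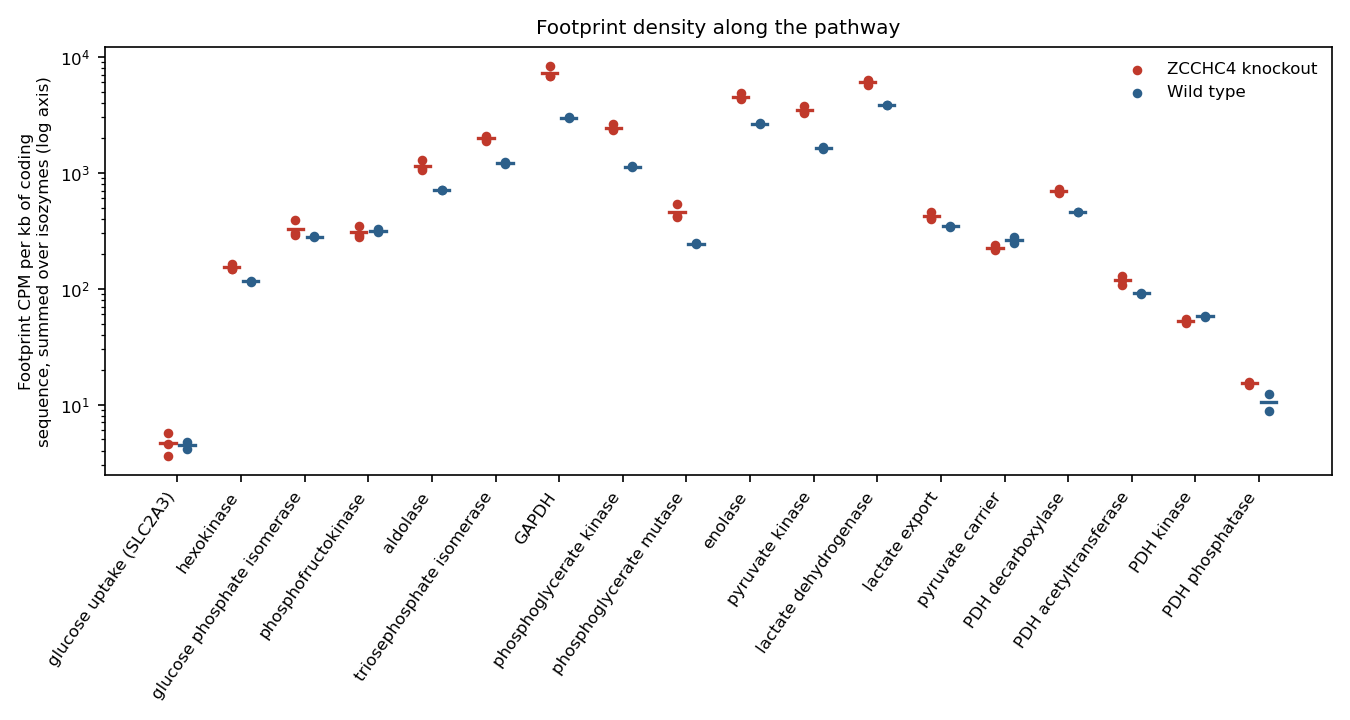
Footprint CPM per kb of coding sequence (log axis), summed over the isozymes or partner subunits of each step from glucose uptake to pyruvate dehydrogenase control. Points are libraries (3 knockout, 2 wild type) and lines are means. Knockout lies above wild type at hexokinase, glucose phosphate isomerase, every step from aldolase to lactate export, and the pyruvate dehydrogenase subunits and phosphatase. It overlaps wild type at glucose uptake and phosphofructokinase, and lies below it at the pyruvate carrier and PDH kinase.

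The lactate genes rose in 4 of 5 cases (80.0%, against 30.2% of all rows), and all 5 had knockout values above wild type (against 38.5% of all rows). Scaled by library totals, 3 of them rose. SLC16A3, the low-affinity monocarboxylate transporter through which glycolytic cells release lactate (ENSG00000141526, chromosome 17 at 82228406 to 82239498 of GRCh38, plus strand, 5 exons), had the largest change of any member. It had 64.0, 100.7 and 62.9 CPM in the knockout libraries, against 16.6 and 18.9 CPM in the wild-type libraries (4.27-fold, log2 fold change 2.09 ± 0.24, adjusted p = 8.84e-05). Its highest value came from knockout replicate 2, without which the log2 fold change was 1.84. SLC16A1, the transporter of most tissues, had 546.7, 585.2 and 525.6 CPM in the knockout libraries, against 495.6 and 497.4 CPM in the wild-type libraries. That difference of 0.15 ± 0.07 did not pass (adjusted p = 0.0823), was 0.11 with an adjusted p of 0.00533 without knockout replicate 2, and was -0.06 when scaled by library totals. BSG, the chaperone that brings both transporters to the cell surface, had 796.2, 988.7 and 861.9 CPM in the knockout libraries, against 676.9 and 653.6 CPM in the wild-type libraries (log2 fold change 0.41 ± 0.09, adjusted p = 0.00402). Without wild-type replicate 2 its adjusted p was 0.0625, and scaled by library totals it was 0.113.

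Lactate dehydrogenase is built from A and B subunits. LDHA, the subunit typical of muscle and of glycolytic cells (chromosome 11 at 18394388 to 18408425, plus strand), had 2624, 2503 and 2593 CPM in the knockout libraries, against 1326 and 1337 CPM in the wild-type libraries (log2 fold change 0.95 ± 0.06, adjusted p = 1.88e-06). LDHB, the subunit typical of heart, had 3706, 3239 and 3561 CPM in the knockout libraries, against 2525 and 2519.9 CPM in the wild-type libraries (log2 fold change 0.47 ± 0.07, adjusted p = 2.67e-04). Both rose without overlap, and for both the lowest knockout value was that of replicate 2, unlike most members. GENCODE 29 lists 6 pseudogenes named for LDHA and 3 for LDHB.

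The promoters of 5 of the genes that rose are shown because HK2, PGK1, ENO1, PKM and LDHA cover the route from the first to the last enzyme and are textbook targets of HIF1A or MYC. Each window holds 300 bases, from 250 before to 50 after a transcription start, from RefSeq on GRCh38.p14, 5′ to 3′ on the gene's strand. Capitals mark ACGTG and GCGTG, the core letters of hypoxia response elements, on either strand, so that CACGT and CACGC are in capitals too; CACGTG, the E-box letters of the MYC family, holds ACGTG on both strands. The windows are chr2:74833877-74834176 for HK2 (plus strand), chrX:78103998-78104297 for PGK1 (plus), chr1:8878637-8878936 for ENO1 (minus), chr15:72231141-72231440 for PKM (minus) and chr11:18394313-18394612 for LDHA (plus).
HK2: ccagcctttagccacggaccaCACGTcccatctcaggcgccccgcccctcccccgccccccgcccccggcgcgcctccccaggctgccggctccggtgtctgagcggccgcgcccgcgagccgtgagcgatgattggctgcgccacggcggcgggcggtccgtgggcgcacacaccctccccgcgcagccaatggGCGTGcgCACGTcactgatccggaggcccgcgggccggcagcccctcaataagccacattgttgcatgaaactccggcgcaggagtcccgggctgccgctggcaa
PGK1: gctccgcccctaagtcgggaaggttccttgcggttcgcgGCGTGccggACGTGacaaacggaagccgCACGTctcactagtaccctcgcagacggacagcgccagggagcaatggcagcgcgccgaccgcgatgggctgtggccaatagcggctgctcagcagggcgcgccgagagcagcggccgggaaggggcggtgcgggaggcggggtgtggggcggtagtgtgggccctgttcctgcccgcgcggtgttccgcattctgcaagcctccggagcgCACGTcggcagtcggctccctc
ENO1: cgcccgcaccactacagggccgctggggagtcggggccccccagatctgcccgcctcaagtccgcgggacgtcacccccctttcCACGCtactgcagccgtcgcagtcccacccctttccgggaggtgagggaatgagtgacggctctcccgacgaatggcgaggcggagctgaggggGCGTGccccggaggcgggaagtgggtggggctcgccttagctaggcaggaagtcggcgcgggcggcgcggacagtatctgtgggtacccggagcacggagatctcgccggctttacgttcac
PKM: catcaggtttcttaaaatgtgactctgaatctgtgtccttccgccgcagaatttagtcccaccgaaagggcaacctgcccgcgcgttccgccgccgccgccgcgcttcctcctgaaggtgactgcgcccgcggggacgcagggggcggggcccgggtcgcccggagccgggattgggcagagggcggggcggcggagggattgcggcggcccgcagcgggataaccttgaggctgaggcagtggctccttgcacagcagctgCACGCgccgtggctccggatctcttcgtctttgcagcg
LDHA: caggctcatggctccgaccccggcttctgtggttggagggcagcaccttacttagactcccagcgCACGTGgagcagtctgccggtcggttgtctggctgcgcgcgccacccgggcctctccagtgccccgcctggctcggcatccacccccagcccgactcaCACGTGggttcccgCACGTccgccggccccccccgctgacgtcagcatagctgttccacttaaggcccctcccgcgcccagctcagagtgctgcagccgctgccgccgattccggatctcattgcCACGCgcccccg
The LDHA window holds CACGTG at 2 places, the PGK1 window holds ACGTG at 3 places and no CACGTG, and the ENO1 and PKM windows hold GCGTG but no ACGTG. Of the 34 tested members, 23 had a RefSeq window within 250 bases of the counted transcript's start. ACGTG was in 9 of the 23 windows (39.1%), against 21.4% of 35116 RefSeq windows of the same length. GCGTG was in 17 (73.9%), against 36.5%, and CACGTG in 4 (17.4%), against 7.26%. The RefSeq windows were taken from all genes and were not matched to the members by expression or base content. The 2 sets are therefore unlike, and no conclusion is drawn from the difference in shares. Among the members, ACGTG was in 5 of 12 windows of genes that rose and in 4 of 11 of the other genes. GCGTG was in 9 of 12 windows of genes that rose and in 8 of 11 of the others, and CACGTG in 3 of 12 windows of genes that rose and in 1 of 11 of the others. A match is a run of letters and no measure of binding.

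The PFKFB enzymes make or remove the strongest allosteric activator of phosphofructokinase, and both measured members gave few footprints. PFKFB2, the form known from heart, had 10.2, 12.8 and 10.9 CPM in the knockout libraries and 11.2 and 12.1 CPM in the wild-type libraries, which overlap (adjusted p = 0.781). PFKFB4, first described in testis, had 3.15, 3.78 and 3.18 CPM in the knockout libraries, against 4.31 and 4.48 CPM in the wild-type libraries. Its difference of -0.40 ± 0.22 did not pass (adjusted p = 0.153), although the genotypes did not overlap. Scaled by library totals its adjusted p was 0.0421. TIGAR, an enzyme that removes the same activator, is no member; it fell by 0.48 ± 0.10 on the log2 scale, to 77.8 CPM in knockout against 108.9 CPM in wild type (adjusted p = 0.00191).

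At the entry of pyruvate into mitochondria, subunits of pyruvate dehydrogenase rose and a subunit of the pyruvate carrier fell. MPC1 and MPC2 together form the carrier of the inner membrane. MPC1 (chromosome 6 at 166364919 to 166382998, minus strand) had 36.03, 34.9 and 40.4 CPM in the knockout libraries, against 56.4 and 52.7 CPM in the wild-type libraries. It fell by 0.55 ± 0.10 on the log2 scale (adjusted p = 0.00156). MPC2 had 43.1, 42.2 and 43.4 CPM in the knockout libraries, against 39.7 and 33.6 CPM in the wild-type libraries (log2 fold change 0.23 ± 0.11, adjusted p = 0.0911). The 2 partners thus lay on opposite sides of wild type, each without overlap. For MPC2 the value without knockout replicate 2 was 0.23 with an adjusted p of 0.0123, and with offsets for coding length and GC content it was -0.01.

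PDHA1, the regulated decarboxylase subunit of pyruvate dehydrogenase, had 608.2, 692.4 and 638.1 CPM in the knockout libraries, against 422.1 and 422.7 CPM in the wild-type libraries (log2 fold change 0.61 ± 0.07, adjusted p = 1.14e-04). PDHB, its partner, had 166.4, 160.3 and 163.4 CPM in the knockout libraries, against 109.7 and 110.5 CPM in the wild-type libraries (log2 fold change 0.57 ± 0.08, adjusted p = 2.05e-04). DLAT, the acetyltransferase core, had 249.4, 210.4 and 232.6 CPM in the knockout libraries, against 177.2 and 176.1 CPM in the wild-type libraries (log2 fold change 0.39 ± 0.09, adjusted p = 0.00456). All 3 catalytic genes rose without overlap, PDHA1 and PDHB by nearly the same factor. DLAT's call did not hold without either wild-type library (adjusted p = 0.0549 and 0.0575) or when scaled by library totals (adjusted p = 0.109). Of the subunits outside the member list, DLD, the dehydrogenase shared with other complexes, rose by 0.59 ± 0.07 on the log2 scale, with 364.9 ± 6.07 CPM in knockout (SD, n = 3) and 242.0 ± 3.14 CPM in wild type (SD, n = 2). PDHX, which tethers that dehydrogenase to the core, averaged 71.2 ± 3.85 CPM in knockout and 73.3 ± 2.20 CPM in wild type (adjusted p = 0.713).

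The complex is switched off by PDK kinases and on by PDP phosphatases. PDK2 had 11.6, 14.3 and 14.5 CPM in the knockout libraries, against 16.6 and 14.6 CPM in the wild-type libraries (adjusted p = 0.277). PDK3 had 52.6, 52.6 and 46.9 CPM in the knockout libraries, against 53.8 and 55.3 CPM in the wild-type libraries (adjusted p = 0.371). Neither kinase passed the test, and both lay just below wild type. Scaled by library totals both passed, with adjusted p of 0.0453 and 0.0178. PDP1, the phosphatase catalytic subunit, had 24.6, 25.1 and 23.7 CPM in the knockout libraries, against 19.7 and 14.2 CPM in the wild-type libraries (log2 fold change 0.52 ± 0.15, adjusted p = 0.0123). The wild-type libraries differ from each other here, and without wild-type replicate 2 the change was 0.31 with an adjusted p of 0.152. PDP2, a second catalytic subunit outside the list, averaged 26.5 ± 1.90 CPM in knockout and 13.2 ± 1.63 CPM in wild type (log2 fold change 1.00 ± 0.14, adjusted p = 2.63e-04). PDPR, the regulatory subunit of the phosphatase and also outside the list, averaged 54.0 ± 5.28 CPM in knockout and 81.9 ± 8.10 CPM in wild type, and fell by 0.60 ± 0.11 on the log2 scale (adjusted p = 0.00134).

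The glycerol phosphate enzymes move cytosolic NADH equivalents to the respiratory chain. GPD2, on the mitochondrial side, had 103.9, 95.4 and 95.8 CPM in the knockout libraries, against 80.2 and 78.4 CPM in the wild-type libraries (log2 fold change 0.31 ± 0.09, adjusted p = 0.0119). Its call did not hold without knockout replicate 1 (adjusted p = 0.0538), without wild-type replicate 1 (0.0815) or without wild-type replicate 2 (0.106), nor when scaled by library totals (0.359). GPD1L, a cytosolic relative of the shuttle enzyme, had 48.2, 53.0 and 48.1 CPM in the knockout libraries, against 55.7 and 62.0 CPM in the wild-type libraries (log2 fold change -0.24 ± 0.10, adjusted p = 0.0589). Without knockout replicate 2 it fell by 0.29 on the log2 scale (adjusted p = 4.82e-04). Scaled by library totals it fell by 0.46 (adjusted p = 0.00357). GPD1L also passed as lower with upper-quartile scaling (0.0298), a filter of a mean count of 50 (0.0222) and offsets for coding length and GC content (0.00759). In the other alternative runs it did not pass. PGAM5 carries a mutase name but is a protein phosphatase of mitochondria. It had 66.6, 90.3 and 67.3 CPM in the knockout libraries and 81.6 and 89.8 CPM in the wild-type libraries, which overlap (adjusted p = 0.248). Without knockout replicate 2 it fell by 0.35 on the log2 scale (adjusted p = 1.68e-06), and scaled by library totals by 0.42 (adjusted p = 0.0344).

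Where a step has several genes, the share each took of the step's footprint density describes the mix of isozymes or, for MPC1 and MPC2, the balance of partner subunits. HK2 made up 51.3, 56.8 and 51.3% of hexokinase density in the knockout libraries, against 32.0 and 34.2% in the wild-type libraries. In knockout HK2 thus was the larger part and in wild type HK1 was. LDHA made up 41.6, 43.7 and 42.3% of lactate dehydrogenase density in knockout, against 34.6 and 34.8% in wild type, so that LDHB stayed the larger subunit in every library. SLC16A3 made up 11.2, 15.6 and 11.4% of the pair of lactate transporters in knockout, against 3.47 and 3.92% in wild type. MPC1 made up 49.4, 49.1 and 52.0% of the pyruvate carrier in knockout, against 62.4 and 64.6% in wild type. Among phosphofructokinases, PFKL held 12.8 ± 0.717% in knockout and 17.3 ± 1.12% in wild type, PFKM 31.0 ± 1.44% in knockout and 26.6 ± 0.640% in wild type, and PFKP 56.2 ± 0.760% in knockout and 56.2 ± 1.76% in wild type (SD, n = 3 knockout and n = 2 wild type). ALDOC was 0.884% of aldolase in knockout and 2.83% in wild type, and ENO3 was 0.202% of enolase in knockout and 0.479% in wild type. PFKFB4 made up 24.4% of the measured PFKFB pair in knockout and 28.9% in wild type, and PDK3 79.0% of the measured PDK pair in knockout and 77.9% in wild type. Of the 11 shares, 9 did not overlap between genotypes, all but PFKP and PDK3. With 3 against 2 libraries the smallest two-sided p an exact permutation test can give is 0.2, which each of those 9 reached (0.244 adjusted over the 11 shares), so none could pass the threshold.

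**Figure D4:**
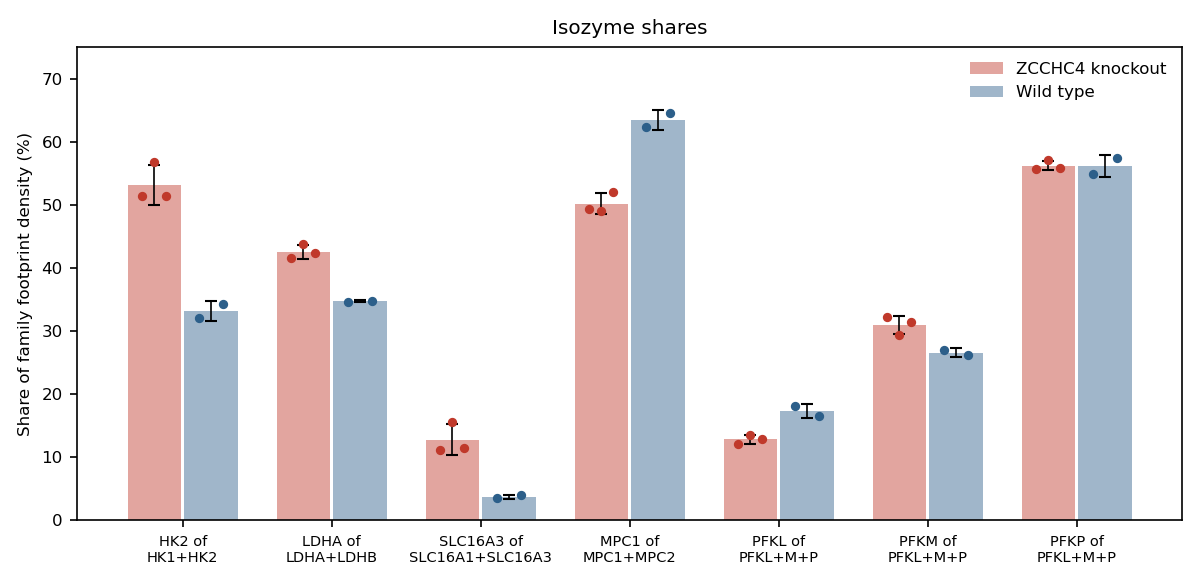
Share of a step's footprint density (percent, from CPM per kb) taken by 1 gene, an isozyme or, for MPC1, a partner subunit. Bars are means over the 3 knockout and 2 wild-type libraries, error bars the SD and points single libraries. HK2 sits at 51.3 to 56.8% in knockout and 32.0 to 34.2% in wild type, and MPC1 at 49.1 to 52.0% in knockout and 62.4 to 64.6% in wild type.

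Knockout replicate 2 lay above both other knockout libraries in 24 of 34 members, against 44.0% of all rows, with a median log2 difference of 0.15 from their mean (0.00 over all rows). The difference ran from -0.20 for DLAT to 0.67 for ENO3. Knockout replicates 1 and 3 differed from each other by a median of 0.05 on the log2 scale in the members, as did the wild-type libraries. Without replicate 2, 19 members rose and 8 fell, and over all rows 4164 rose and 4012 fell. GAPDH was then at a log2 fold change of 1.19, HK2 at 0.98, PGAM1 at 0.79 and PFKL at -0.64. The libraries left differed within a genotype by a chi-square of only 2.97 (knockout) and 1.14 (wild type, at lower depth) per degree of freedom. Calls gained in that fit rest on this small spread.

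A further list of 36 symbols of the pathway, some of them older names of genes already listed, gave 18 tested rows. Of these 10 rose (55.6%, against 30.2% of all rows) and 3 fell (16.7%, against 29.8%), 5 missing the threshold, and the median log2 fold change was 0.77. Those 10 include PGK2, PGAM4 and LDHAL6A, relatives of members that rose. Whether they share footprints with those members was not tested. SLC2A1, the main glucose transporter of proliferating cells, had 154.1, 225.2 and 158.7 CPM in the knockout libraries, against 48.3 and 51.3 CPM in the wild-type libraries (3.60-fold, log2 fold change 1.85 ± 0.18, adjusted p = 2.81e-05). SLC2A6, a glucose transporter of lysosomes, averaged 7.37 ± 1.87 CPM in knockout and 3.01 ± 1.35 CPM in wild type (adjusted p = 0.0129). ADPGK, a glucokinase that uses ADP, averaged 95.2 ± 3.84 CPM in knockout and 38.6 ± 3.42 CPM in wild type (log2 fold change 1.30 ± 0.10, adjusted p = 8.19e-06). Footprints on SLC2A1 were thus higher, while the sparse SLC2A3 did not pass the test. Glucose uptake itself was not measured.

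LDHAL6A, a relative of lactate dehydrogenase, averaged 21.4 ± 2.62 CPM in knockout and 4.67 ± 0.261 CPM in wild type (log2 fold change 2.19 ± 0.20). SLC16A7, a high-affinity pyruvate and lactate transporter, averaged 0.200 ± 0.0982 CPM in knockout and 5.11 ± 0.0947 CPM in wild type, and fell by 4.59 ± 0.38 on the log2 scale (adjusted p = 1.22e-05). SLC16A3 thus rose, while SLC16A7 fell to near the floor of 3 counts. That floor is 0.102 to 0.186 CPM in the knockout libraries. SLC16A1, with far more footprints than either, did not pass the test, at 552.5 ± 30.2 CPM in knockout and 496.5 ± 1.27 CPM in wild type. PGK2 had 72 counts in the knockout libraries together and 0 in wild type, and was at least 3.67-fold higher, against a floor of 3 counts over both wild-type libraries. PGAM4 averaged 2.16 ± 0.170 CPM in knockout and 0.532 ± 0.224 CPM in wild type (adjusted p = 0.00326). PGK2 and PGAM4 are retrocopies of PGK1 and PGAM1, so some of their footprints may be shared with those genes.

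Among regulators of the hypoxia pathway, HIF1A, the oxygen-regulated subunit, averaged 295.7 ± 18.8 CPM in knockout and 189.1 ± 4.26 CPM in wild type (log2 fold change 0.65 ± 0.08, adjusted p = 1.39e-04). Of 7 HIF regulators 3 rose (42.9%, against 30.2% of all rows) and 3 fell (42.9%, against 29.8%). Those past 2-fold were EPAS1, the related HIF subunit, which fell by 1.96 ± 0.33, and EGLN2, a prolyl hydroxylase that marks HIF subunits for removal, which rose by 1.03 ± 0.21 on the log2 scale. Among the rest of the 7, ARNT fell by 0.835 ± 0.098 (adjusted p = 9.42e-05, edgeR) and VHL by 0.48 ± 0.11 (0.00486). HIF1AN rose by 0.41 ± 0.10 (0.00682), and EGLN1 did not pass (0.872). Of 11 tested hypoxia targets outside glycolysis, 3 rose (27.3%) and 3 fell (27.3%), shares close to the 30.2% and 29.8% of all rows. Their median log2 fold change was 0.19. VEGFA, the vascular growth factor, averaged 13.4 ± 1.36 CPM in knockout and 43.0 ± 1.65 CPM in wild type, and fell by 1.69 ± 0.12 on the log2 scale (adjusted p = 5.45e-06). NDRG1, a stress-responsive gene, fell by 2.02 ± 0.23 and EGLN3, another prolyl hydroxylase, rose by 2.30 ± 0.24. TXNIP, which restrains glucose uptake and is switched on by glucose through MLXIP and MLX, averaged 16.9 ± 0.864 CPM in knockout and 5.77 ± 1.08 CPM in wild type (log2 fold change 1.56 ± 0.17, adjusted p = 7.05e-05). Of the 4 tested genes of that circuit, TXNIP included, 2 rose and none fell (50.0% higher, against 30.2% of all rows).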

How the data were processed

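Ribosome footprints of 5 HAP1 libraries were analysed, 3 from ZCCHC4 knockout and 2 from wild-type cells. Per the labels' protocols, RNase I digestion of cycloheximide lysates was followed by sucrose gradients for monosomes, and fragments of 28 to 32 nucleotides were cloned with adapters carrying randomised nucleotides. The labels give the molecule as polyA RNA. The deposited values are whole-number counts per transcript. Bowtie and hg38 are named in the submitters' processing notes; for versions, annotation, multiply matching reads and duplicates the setting is not given in the sources used here. The header of the table is shifted by 1 cell against its values, and columns were taken by their order under the sample names.

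The counts were tested with edgeR 4.0.16 (R 4.3.3): filterByExpr (minimum count 10), TMM scaling, quasi-likelihood test of knockout over wild type without covariates, Benjamini-Hochberg adjustment over all 11205 tested rows, threshold 0.05. Standard errors are the log2 fold change over the square root of F. The script was tested on simulated counts. Of 13638 rows, 13533 were placed on GENCODE 29 (GRCh38) by transcript. ALDOA's coding length is the longest under its symbol. Shares were compared with exact two-sided permutation tests. Alternatives were other scalings (RLE, upper quartile, library totals), other filters, DESeq2 1.42.0, a replicate block, each library left out, summed wild-type libraries, and offsets for coding length and GC. All members are named; of the other lists, genes past the test with at least a 2-fold change, plus SLC2A1, PDHX, DLD, TXNIP and HIF1A. TIGAR, PDPR, ARNT, VHL, HIF1AN, EGLN1, COL1A1, KRT18 and CDH1 were named after their values were seen. So were PGM1, MDH1, GOT1 and several glycogen genes among the closing observations. Members and lists were chosen with earlier results of these data known. The result of 1 glycogen gene is not reported here. Floors cover counting error only.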

Additional observations from a re-analysis of the deposited data

How the results depend on the processing

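Of the 20 members called, 15 were called in the same direction under all 14 alternatives; BSG, DLAT, GPD2, PDP1 and PFKL were not. For single members, 424 results kept their direction and side of the threshold, 23 gained a call, 16 lost it and 13 turned direction. The cause was not tested. The median log2 fold change of all members (0.27) was 0.205 with upper-quartile scaling, 0.05 with library totals, 0.31 with no filter, 0.197 with the stricter filter of a mean count of 50 and 0.35 with length and GC offsets. For the lactate genes (0.47) these were 0.41, 0.25, 0.51, 0.40 and 0.57. With library totals the medians of lower steps, pyruvate entry and upper steps were 0.79, 0.087 and -0.12; pyruvate entry was at 0.235 with the stricter filter and 0.233 with offsets. Members called lower numbered 5 with upper-quartile scaling, 9 with library totals and 5 with the stricter filter, against 3. With library totals 2 genes of pyruvate entry rose and 3 fell. With offsets 6 upper-step genes rose and 1 fell, and 1 fell with the wild-type libraries summed. In the fit with a replicate block 16 members rose and 4 fell, with 1 lower-step gene lower, and 3068 rows rose and 3026 fell. Same-numbered libraries had deviations correlated at -0.144 and -0.147. The wild-type libraries differed from each other with a chi-square of only 1.14 per degree of freedom. The correlations therefore cannot tell whether the numbers pair libraries.

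Leaving out each library in turn gave 2387 to 4164 rows higher and 2311 to 4012 lower, 13 to 19 members higher and 2 to 8 lower. By steps, 3 to 4 upper, 5 to 5 lower, 3 to 5 lactate and 2 to 5 pyruvate entry genes were higher, and 1 to 4, 0 to 1, 0 to 0 and 1 to 1 were lower. The medians ran from 0.26 to 0.34 for all members, -0.02 to 0.19 for upper steps, 0.91 to 1.045 for lower steps, 0.46 to 0.53 for lactate genes and 0.21 to 0.37 for pyruvate entry. Differences in share, in percentage points, ran from 18.2 to 21.15 for HK2, -5.245 to -3.66 for PFKL, 3.81 to 5.22 for PFKM, -1.22 to 1.27 for PFKP, -1.99 to -1.925 for ALDOC, -0.3505 to -0.204 for ENO3, 7.26 to 8.33 for LDHA, -0.320 to 2.52 for PDK3, -4.93 to -4.09 for PFKFB4, 7.60 to 9.82 for SLC16A3 and -14.45 to -12.2 for MPC1. PFKP's share also turned direction without knockout replicate 2 (-0.412) and PDK3's without wild-type replicate 1 (-0.153).

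Directions that turned all belonged to members past no test in the fit used. With offsets HK1 was at 0.13, MPC2 at -0.012 and PFKP at 0.20 (adjusted p = 0.0116, edgeR); with library totals PFKM was at -0.054, SLC16A1 at -0.064 and SLC2A3 at -0.18. SLC2A3 was also at -0.029 with upper-quartile scaling, -0.038 with the stricter filter, -0.059 without wild-type replicate 2 and -0.122 without knockout replicate 2. Without knockout replicate 1 PFKP was at 0.015 (-0.171 without knockout replicate 2) and PFKFB2 at 0.006, and without wild-type replicate 2 PFKFB2 was at 0.001. The median of all rows was -0.049 with upper-quartile scaling, -0.20 with library totals and -0.074 with DESeq2. Depth limits the sparse genes: 3 counts are 0.517 and 0.560 CPM in the wild-type libraries.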

Other observations

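Glycogen genes changed in both directions. Of 8 tested, 5 rose and 3 fell, where 60.0% of all rows passed the test. The 4 named here that rose act in making glycogen. GYS1, the glycogen synthase of muscle and most cells, averaged 63.8 ± 7.05 CPM in knockout (SD, n = 3) and 25.9 ± 0.454 CPM in wild type (SD, n = 2), a log2 fold change of 1.30 ± 0.12 (adjusted p = 3.06e-05, edgeR). GBE1, the branching enzyme, averaged 44.6 ± 1.11 CPM in knockout and 21.9 ± 2.62 CPM in wild type (log2 fold change 1.03 ± 0.11). GYG1, the protein primer of glycogen, rose by 0.94, and UGP2, which makes UDP-glucose, by 0.57. Those that fell were both tested phosphorylases, PYGL to 339.9 ± 6.50 CPM in knockout against 588.5 ± 5.63 CPM in wild type and PYGB to 149.2 ± 19.2 CPM in knockout against 196.4 ± 0.585 CPM in wild type, and GYG2, a primer known from liver (-0.75).

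Among 9 tested genes of hexose handling and glucose synthesis, 2 rose and 2 fell (22.2% each, against 30.2% and 29.8% of all rows). PGM2, a phosphopentomutase of the phosphoglucomutase family, averaged 194.9 ± 3.63 CPM in knockout and 80.4 ± 6.15 CPM in wild type, while PGM1, the main phosphoglucomutase, averaged 78.7 ± 1.99 CPM in knockout and 140.2 ± 1.04 CPM in wild type. PCK2, the mitochondrial enzyme that makes phosphoenolpyruvate, averaged 70.1 ± 10.8 CPM in knockout and 239.0 ± 0.812 CPM in wild type (log2 fold change -1.77 ± 0.12, adjusted p = 3.77e-06, edgeR). G6PC3, a glucose phosphatase, rose by 1.07 ± 0.21 on the log2 scale. In the malate-aspartate shuttle, which like the glycerol phosphate shuttle moves NADH equivalents, 4 of 7 genes rose (57.1%, against 30.2% of all rows) and 1 fell (14.3%, against 29.8%). SLC25A11, its malate carrier, averaged 101.9 ± 21.6 CPM in knockout and 47.0 ± 3.84 CPM in wild type, and MDH1, the cytosolic malate dehydrogenase, averaged 568.5 ± 37.1 CPM in knockout and 315.0 ± 1.91 CPM in wild type. GOT1, the cytosolic transaminase, fell by 0.56 ± 0.09 on the log2 scale.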
